A study of Caenorhabditis elegans with 4 samples.

Results

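Nuclear pores are large protein channels through the nuclear envelope. Importins carry cargo inwards through them, exportins carry cargo outwards, and the small GTPase Ran, loaded with GTP by its exchange factor in the nucleus and made to hydrolyse it by its activating protein in the cytoplasm, sets the direction. In Caenorhabditis elegans the pore proteins, or nucleoporins, are encoded by npp genes, and most importins, exportins and Ran cycle proteins by ima, imb, xpo and ran genes. The 40 protein-coding genes with these prefixes in the WBcel235 annotation were taken, out of 19973 protein-coding genes on nuclear chromosomes. They comprise 26 pore genes (npp) and 14 transport genes (3 ima, 3 imb, 3 xpo and 5 ran). Genes of the pore that carry other names, such as mel-28, are not among them. The genes were taken by name and not by a cut on any peak value, but the set was chosen with earlier results of the same data known.

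Peaks came from ChIP-seq, the sequencing of DNA recovered with a chromatin protein, for EGL-27 in whole L3 larvae. EGL-27 is an MTA-family protein related to subunits of the NuRD chromatin remodelling complex. All 4 samples were biological replicates of 1 group of mixed-sex worms of strain OP177, with the genotype unc-119(ed3) III and the transgene wgIs177, from which EGL-27 is expressed with a GFP-FLAG tag at its C-terminus. The age was given as unknown and the antibody's label was egl-27. No sample of another strain, stage or protein was compared, so a peak of EGL-27 cannot be told apart from a peak that most ChIP experiments would give. Whole animals were used, so the tissue in which a site was occupied cannot be told, and a peak list holds no expression by which the label could be checked.

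The deposited ce11 lists held 28056 peaks in the pooled list and 814 in the list thresholded by IDR, the irreproducible discovery rate, which weighs whether a peak keeps its rank from replicate to replicate. The lists of replicates 1 to 4 held 30000, 6602, 19304 and 12990 peaks. The pooled and replicate lists contain peaks and background together, so a weak summit there is not in itself a site, and the IDR list equals the 814 highest pooled peaks. A gene was counted when a summit, the highest point of a peak, lay from 1000 bp upstream to 200 bp downstream of its annotated 5′ end. Peaks were ranked within each list by the authors' signal value, rank 1 being the highest. Ranks from lists of unequal length are not comparable, so the replicates were also compared at 1 length, the 814 highest peaks of each, here called top peaks. Read depth is unknown.

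Pore and transport genes had EGL-27 summits in their promoter windows more often than protein-coding genes at large. In the pooled list 28 of the 40 genes (70%) had a summit, against a background of 37.5% of all protein-coding genes. In the IDR list 5 genes (12.5%) had one, against 2.56%. Among genes with any pooled summit, the IDR share was 17.9% of 28 member genes and 6.84% of 7489 genes. The median pooled rank was 4149 for the 28 genes and 9773 for all genes with a summit. No p-value is given for these counts, because the genes were put together with earlier results of the same data known.

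The excess over the background was present in each replicate. In the whole lists of replicates 1, 2, 3 and 4, summits were found at 29, 11, 20 and 23 of the 40 genes. These are shares of 72.5%, 27.5%, 50% and 57.5%, where the background was 37.9%, 10.3%, 26.7% and 19.6%. The gap to the background was 28.2 ± 9.66 percentage points (mean ± SD, n = 4) and lay above 0 in 4 of 4 replicates. These lists differ in length, so this SD does not measure the spread between replicates alone. Replicate 1, with the longest list, held the most of the genes and replicate 2, with the shortest, the fewest, while replicate 4 held more than the longer list of replicate 3. At the level of top peaks the counts were small, with 3, 1, 2 and 3 genes in replicates 1 to 4, or 5.62% ± 2.39 (SD, n = 4) of the genes. In at least 1 replicate 7 genes (17.5%) had a top peak, against 5.48% of all genes. The background of top peaks was 2.32%, 1.75%, 2.01% and 2.13% in the same order, and in replicate 2 the share of 2.5%, which is a single gene, lay close to it. At this equal length the gap to the background was 3.57 ± 2.17 percentage points (mean ± SD, n = 4), from 0.748 to 5.37. Of the 40 genes, 15 (37.5%) had a summit in the whole lists of at least 3 replicates, against 9.45% of all genes, and 4 (10%) had one in all 4, against 2.6%. These 4 were npp-3, npp-19, npp-27 and imb-3.

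**Figure D1:**
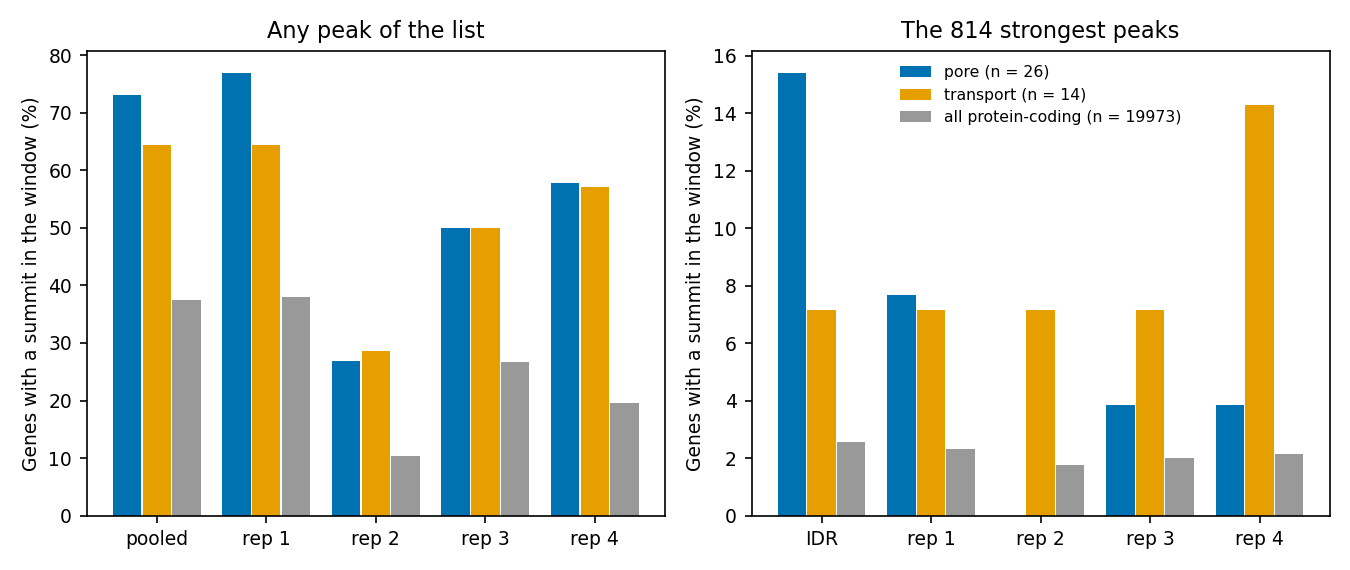
Share of genes (%) with a summit in the promoter window, for 26 pore genes, 14 transport genes and 19973 protein-coding genes, in whole lists (left: pooled and replicates 1 to 4) and among the 814 strongest peaks (right: IDR list and replicates 1 to 4). Each bar is 1 list, so there are no error bars. In whole lists both kinds of gene lie above the grey background bars, and among top peaks pore genes reach 0% in replicate 2 and transport genes 14.3% in replicate 4.

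Pore and transport genes did not separate in the whole lists. Pooled summits were found at 19 of 26 pore genes (73.1%) and 9 of 14 transport genes (64.3%), where the background was 37.5%. The pore share minus the transport share in replicates 1 to 4 was 12.6, -1.65, 0 and 0.549 percentage points, a mean of 2.88 ± 6.57 (SD, n = 4), which is smaller than the spread between replicates. In the IDR list 4 pore genes (15.4%) and 1 transport gene (7.14%) had a summit, against 2.56% of all genes. Top peaks of single replicates gave the opposite order. Their share was 3.85% ± 3.14 of pore genes and 8.93% ± 3.57 of transport genes (SD, n = 4), and the difference of -5.08 ± 4.76 percentage points was below 0 in replicates 2, 3 and 4 and 0.549 in replicate 1. With the 1628 strongest peaks of each replicate in place of 814 the mean difference turned to 0.824 ± 7.8. With 14 transport genes, 1 gene is worth 7.14 percentage points, so neither order stands out from these counts.

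Among the pore genes, the 4 with an IDR summit were npp-3, npp-12, npp-14 and npp-8, at ranks 536, 547, 689 and 769 of 814, all in the weaker part of that list. Each was a top peak in exactly 1 replicate, and no pore gene was one in at least 2 replicates, where the background was 1.86% of all genes. The inner ring, the scaffold against the pore membrane, held 2 of them, npp-3 and npp-8. Of the 4 genes, npp-3 alone had a summit in every replicate list. For npp-3 (WBGene00003789), an inner ring nucleoporin, the ranks in replicates 1 to 4 were 1040, 2435, 965 and 766. It was thus present in all 4 lists, near the top of those of replicates 1, 3 and 4 and deeper in the shorter list of replicate 2. Its peak (chrII:11874665-11875034, ce11) had its summit 62 bp upstream of the annotated 5′ end, in the 359 bp between npp-3 and the divergent gene top-2, which encodes a DNA topoisomerase and whose 5′ end lay 298 bp from the summit.

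For npp-8 (WBGene00003794), likewise an inner ring nucleoporin, the ranks were 590 in replicate 1 and 953 in replicate 4, and replicates 2 and 3 had no summit in the window. The peak (chrIV:1595844-1596213) had its summit 205 bp upstream of npp-8 and lay in no other gene's window. The remaining inner ring genes, npp-19 and npp-13, had pooled ranks of 1898 and 4567, so that 4 of 4 inner ring genes had a pooled summit, against 37.5% of all genes. For npp-19 the replicate ranks were 23952, 923, 8566 and 5017. Its best position was in the shortest list, that of replicate 2, and replicate 1 held it only among its weak peaks. The summit lay 214 bp upstream, with the nearest upstream gene 7257 bp away.

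The DNA under the summits of npp-3, npp-8 and npp-19 of the inner ring is shown to compare its letters. That of npp-27 and of the exportin gene xpo-1 is shown with it. The window of npp-27 held a summit in all 4 replicate lists, but that of replicate 2 lay more than 200 bp from the summit shown. Each run spans 50 bases on either side of the pooled summit, read 5′ to 3′ on the gene's strand from the RefSeq WBcel235 genome, and the capital marks the summit base. The regions are chrII:11874800-11874900 on the minus strand for npp-3, chrIV:1595979-1596079 on the minus strand for npp-8, chrII:10798643-10798743 on the minus strand for npp-19, chrIV:7910459-7910559 on the minus strand for npp-27, and chrV:7804505-7804605 on the plus strand for xpo-1. None of them overlaps an annotated gene.
npp-3: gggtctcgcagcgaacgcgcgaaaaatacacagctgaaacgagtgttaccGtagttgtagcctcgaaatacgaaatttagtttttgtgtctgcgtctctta
npp-8: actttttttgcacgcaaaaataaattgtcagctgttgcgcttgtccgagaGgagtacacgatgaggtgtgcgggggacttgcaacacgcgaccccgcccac
npp-19: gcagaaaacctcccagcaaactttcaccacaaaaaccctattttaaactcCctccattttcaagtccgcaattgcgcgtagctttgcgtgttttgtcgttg
npp-27: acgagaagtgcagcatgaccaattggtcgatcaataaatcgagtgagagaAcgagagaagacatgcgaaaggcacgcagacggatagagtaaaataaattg
xpo-1: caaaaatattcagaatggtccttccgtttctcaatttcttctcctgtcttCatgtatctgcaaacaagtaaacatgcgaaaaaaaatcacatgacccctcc
GC content was 45.5%, 53.5%, 44.6%, 43.6% and 37.6% in this order. None of the 5 holds a GATA hexamer, that is GATA preceded by A or T and followed by A or G, nor the repeat GAGAGAG or the E-box CACGTG.

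The membrane nucleoporins anchor the pore in the envelope. Here npp-12 (WBGene00003798) had a peak at chrI:6446482-6446851, with replicate ranks of 2374, none, 272 and 5633. Replicate 3 thus held it among its 814 top peaks, replicates 1 and 4 below theirs, in lists of 30000 and 12990 peaks, and replicate 2 not at all. Its summit lay 637 bp upstream of npp-12 but 202 bp from the 5′ end of the divergent gene T23H2.3, so the peak cannot be given to npp-12 alone. The membrane genes npp-25 and npp-22 had pooled ranks of 6896 and 7642, with best replicate ranks of 1701 and 1999, both in replicate 4. Thus 3 of 3 membrane genes had a pooled summit, against 37.5% of all genes, as did every inner ring gene.

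Among nucleoporins of the cytoplasmic face, npp-14 (WBGene00003800) had a peak at chrI:9665000-9665369, with ranks of 386 in replicate 1, 9082 in replicate 3 and 3248 in replicate 4 and none in replicate 2. The summit lay 270 bp upstream of npp-14 and 66 bp from the 5′ end of cel-1, which encodes the mRNA capping enzyme. Of the other genes of that face, npp-9 had a pooled rank of 17246, and npp-24 and npp-26, the GLE1 gene by its RefSeq name, had no pooled summit. In the nuclear basket, which faces the nuclear interior, npp-7 had a pooled rank of 1164, in a promoter region shared with the netrin receptor gene unc-40, whose 5′ end was nearer at 230 bp. Replicates 1 and 3 only had a summit within 200 bp of it, at ranks 1682 and 7832, and the strongest summit of replicate 3 in the window of npp-7, at rank 2720, lay elsewhere. The basket gene npp-16 had a pooled rank of 6736 and npp-21, the worm TPR gene, none.

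The outer ring, the Y-shaped scaffold that coats the pore, had 6 of 8 genes with a pooled summit and 0 of 8 with an IDR summit, where the shares of all genes were 37.5% and 2.56%, so that the 0 is no trait of so small a group. Its strongest were npp-10, which encodes a precursor of 2 nucleoporins, npp-20 and npp-6, at pooled ranks of 2631, 3913 and 4361. Their lowest rank numbers in any replicate were 1599 in replicate 2, 5319 in replicate 3 and 1171 in replicate 4, whose lists held 6602, 19304 and 12990 peaks. For npp-10 the rank was also 3917 among the 30000 peaks of replicate 1, and replicates 3 and 4 had no summit. For npp-6 replicate 4 was the sole replicate with a summit, and the pooled summit lay inside the neighbouring gene spd-5. The other ring genes with a summit were npp-18, npp-15 and npp-2, at ranks 6966, 9837 and 11924, and npp-23 and npp-5 had none. Of the central channel nucleoporins, whose phenylalanine-glycine repeats fill the pore, 1 of 3 genes had a pooled summit (npp-1, rank 15523), close to the 37.5% of all genes, and npp-4 and npp-11 had none. The gene npp-27, whose place in the pore is not described here, had a pooled rank of 2443 and replicate ranks of 26531, 1399, 3539 and 1703, of which that of replicate 2 belongs to a summit elsewhere in the window. Its summit lay 262 bp upstream and 66 bp from the 5′ end of ntl-4, a subunit gene of the CCR4-NOT deadenylase. These subgroups hold 3 to 8 genes each, and their order was not tested.

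**Figure D2:**
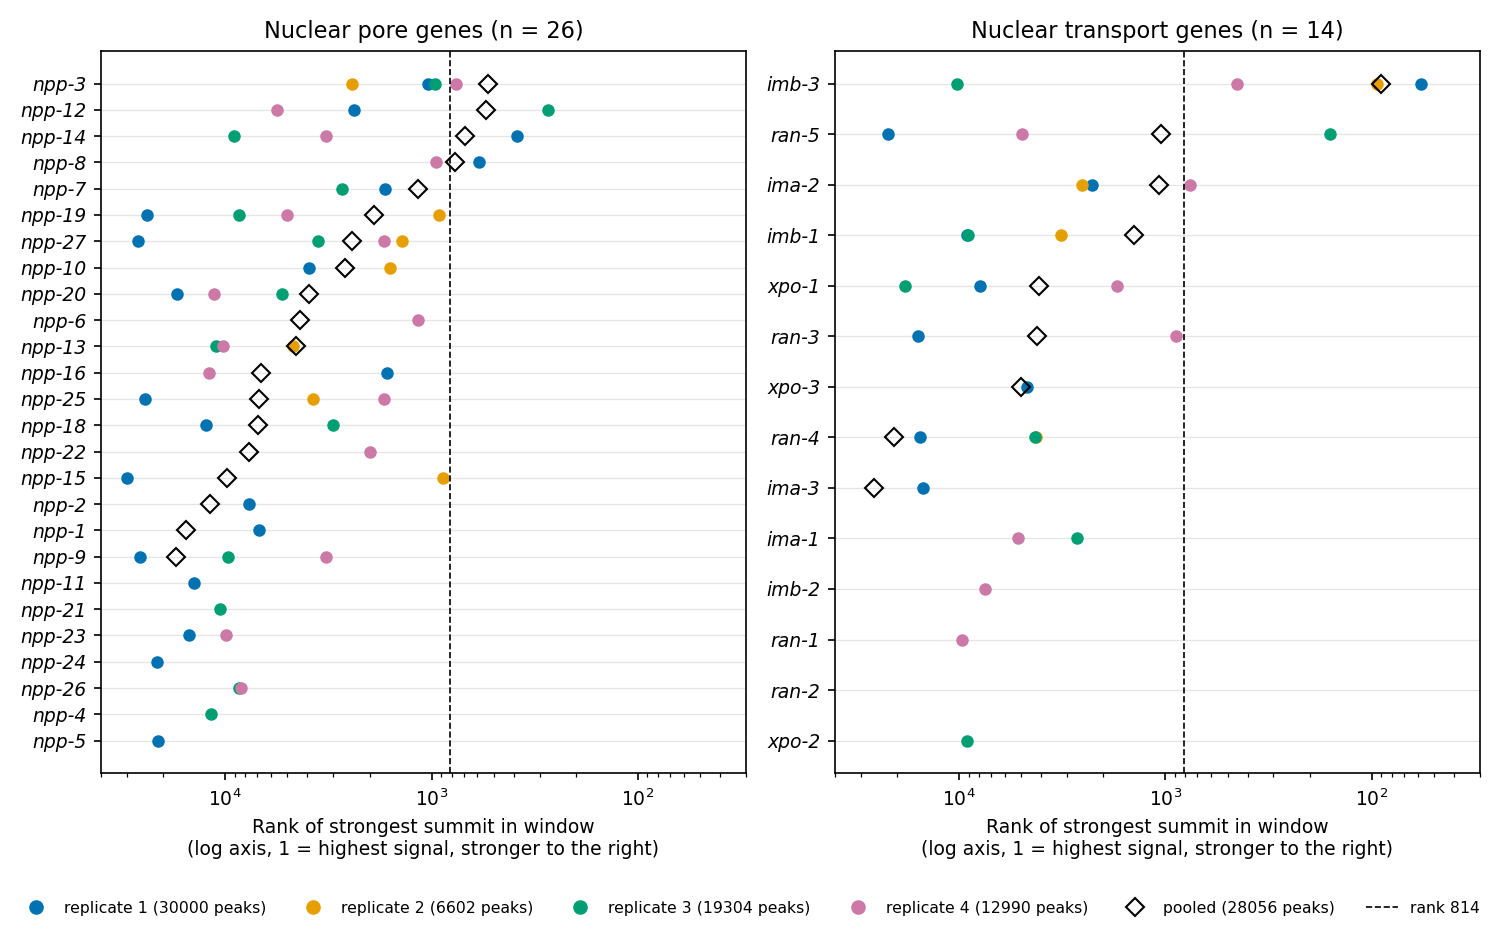
Rank of the strongest summit in the promoter window of each pore gene (left) and transport gene (right), on a log axis with stronger peaks to the right. Circles are replicates 1 to 4, open diamonds the pooled list, the dashed line is rank 814, and a missing symbol means no summit. The gene imb-3 lies right of the line in 3 replicates, whereas each pore gene there does so in 1.

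The strongest peak of any of the 40 genes was at a transport gene, imb-3 (WBGene00002077), which encodes an importin of the beta family. Its pooled rank was 90, and its ranks in replicates 1 to 4 were 58, 94, 10235 and 451. Replicates 1, 2 and 4 thus held it among their top peaks and replicate 3 held it near the middle of its list. It was the 1 member with a top peak in at least 3 replicates, as 0.676% of all genes were. The peak (chrI:315070-315439) had its summit 266 bp upstream of imb-3 in no other gene's window. The upstream neighbour on the same strand is xpo-2, 3559 bp away, an exportin gene that returns importin alpha to the cytoplasm. No pooled summit lay in the window of xpo-2, and the 1 replicate summit there had rank 9150 in replicate 3.

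The other genes of the importin beta family were weaker. For imb-1, importin beta itself, the pooled rank was 1418 and the ranks of replicates 1 to 3 were 9145, 3193 and 9057, with none in replicate 4. Its summit lay in the 148 bp between imb-1 and mfsd-13.1, about midway, at 78 and 71 bp from their 5′ ends. The transportin gene imb-2 had no pooled summit and 1 replicate summit, at rank 7465 in replicate 4. Of the importin alpha genes, whose products join cargo to importin beta, ima-2 had a pooled rank of 1069 and ranks of 2273, 2528 and 757 in replicates 1, 2 and 4. Replicate 3 had none. Its summit lay 329 bp upstream in no other window. In contrast ima-3 had a pooled rank of 25727 and a summit in replicate 1 only, and ima-1 had none in the pooled list but ranks of 2678 and 5196 in replicates 3 and 4.

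The exportin gene xpo-1 had a pooled rank of 4086 and ranks of 7878, 18245 and 1713 in replicates 1, 3 and 4. Its summit, 509 bp upstream, was nearer to uvs-1 at 347 bp. The gene xpo-3, for the exporter of tRNA, had a pooled rank of 5029 and the 1 summit among the 28 that lay downstream of the 5′ end, by 68 bp. Of the Ran cycle genes, ran-5, which encodes a protein with a Ran-binding domain, had a pooled rank of 1052 and ranks of 22035, 159 and 4952 in replicates 1, 3 and 4. Replicate 3 alone held it as a top peak, and the summit lay 44 bp inside the divergent gene R12C12.6. For ran-3, the exchange factor gene, the pooled rank was 4212 and the ranks of replicates 1 and 4 were 15894 and 889, with the summit 44 bp from the 5′ end of C26D10.3. The gene ran-4, for the carrier that returns Ran to the nucleus, had a pooled rank of 20575. Its ranks in replicates 1, 2 and 3 were 15417, 4226 and 4277, and only those of replicates 2 and 3 lay within 200 bp of the pooled summit. The Ran GTPase gene itself, ran-1, had no pooled summit and 1 replicate summit, at rank 9669 in replicate 4. The activating protein gene ran-2 had no summit in any list, and 42.6% of all genes had none in any replicate. Its 5′ end lies 479 bp beyond the end of npp-15 on the same strand.

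In all, 12 genes had no pooled summit, and the 28 that had one were 70% of the members, against 37.5% of all genes. They were npp-4, npp-5, npp-11, npp-21, npp-23, npp-24 and npp-26 of the pore and ima-1, imb-2, ran-1, ran-2 and xpo-2 of transport. Of these, 3 (npp-23, npp-26 and ima-1) had a summit in 2 replicates, 8 in 1 replicate and ran-2 in none. The matching shares for all genes without a pooled summit were not counted, so these replicate summits cannot be read as a trait of the members. Of the 28 pooled summits, 27 (96.4%) had a summit of at least 1 replicate within 200 bp, against 86.8% for the 7489 genes with a pooled summit, and the exception was npp-1. At least 3 replicates had one at 12 of the 28 (42.9%), against 16.2%. All 4 had one at 3 (10.7%), namely npp-3, npp-19 and imb-3, against 4.11%. The pooled list contains the reads of these replicates, so the 2 are not independent.

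The summits sat in the proximal upstream region. The median position was 272 bp upstream for the 28 genes and 279 bp for all 7489 genes with a pooled summit, but members were less spread, with 23 (82.1%) within 500 bp upstream against 55.8% of all genes. For 12 of the 28 another gene's 5′ end was nearer to the summit. The member's own 5′ end was the nearest for 57.1% of members and 82.8% of all genes, and 15 of the 28 summits (53.6%) lay in a second protein-coding gene's window, against 27.2% for all genes. A non-coding gene lay within 200 bp of 3 summits (ran-5, xpo-1 and xpo-3), a share of 10.7% close to the 11.8% of all genes. For 0 of 28 was it a tRNA, snoRNA or snRNA gene, as it was for 1.87% of all genes. When a summit was assigned to no gene but the one with the nearest 5′ end, the pooled count fell to 18 of 40 (45%, background 31.7%) and the IDR count to 3 (7.5%, background 1.91%), with npp-3, npp-8 and imb-3 left.

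**Figure D3:**
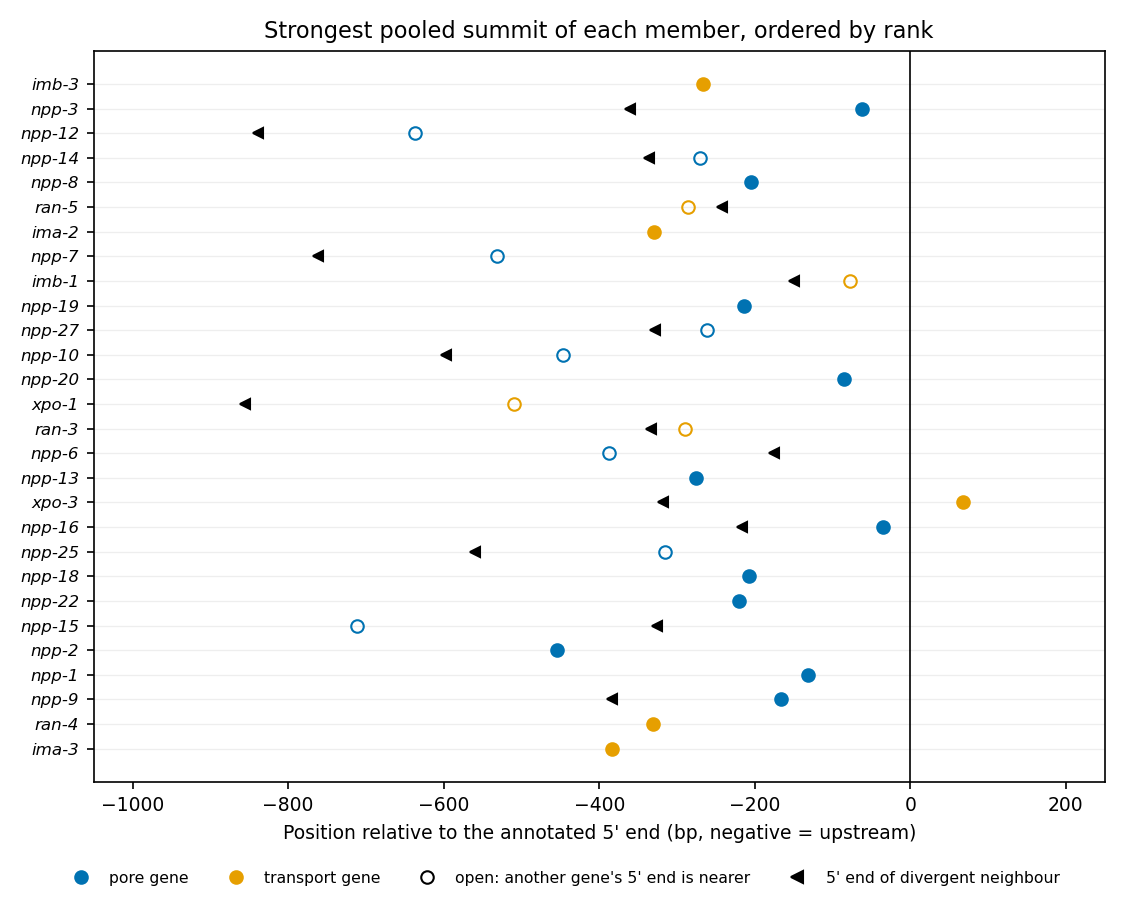
Position of the strongest pooled summit relative to the annotated 5′ end (bp) of the 28 genes that have one, ordered by pooled rank from the strongest at the top. Filled circles are summits nearest to the member's own 5′ end, open circles are the 12 nearer to another gene, and triangles mark the 5′ end of a divergent neighbour within 1000 bp. All but xpo-3 lie upstream.

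The members also differed from other genes in how their promoters are laid out, by groups that were set after the positions had been seen. A divergent neighbour lay within 1000 bp upstream of 20 of the 40 genes (50%) and of 17.5% of all protein-coding genes. Among genes so placed, 16 of 20 members (80%) and 47% of all genes had a pooled summit. Among genes with a same-strand neighbour within 500 bp, as in many operons, 2 of 5 members (40%) and 35.7% of all genes had one, and 0 members and 1.47% of all genes had an IDR summit. Among the rest it was 10 of 15 members (66.7%) and 35.4% of all genes. The member share was thus above the background where the neighbour was divergent and among the rest, and close to it in the small same-strand group. The IDR summits of npp-3, npp-12 and npp-14 belonged to the divergent group, 15% of its members against 5.42%. Those of npp-8 and imb-3 belonged to the rest, 13.3% against 2.09%. No member lies on the X chromosome, which holds 13.7% of all genes, whereas chromosome I holds 13 of the 40 members and 14.4% of all genes. On the autosomes alone the pooled background was 36.9% and the IDR background 2.49%. How active these promoters are in larvae was not measured, and its part in the counts was not tested.

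**Figure D4:**
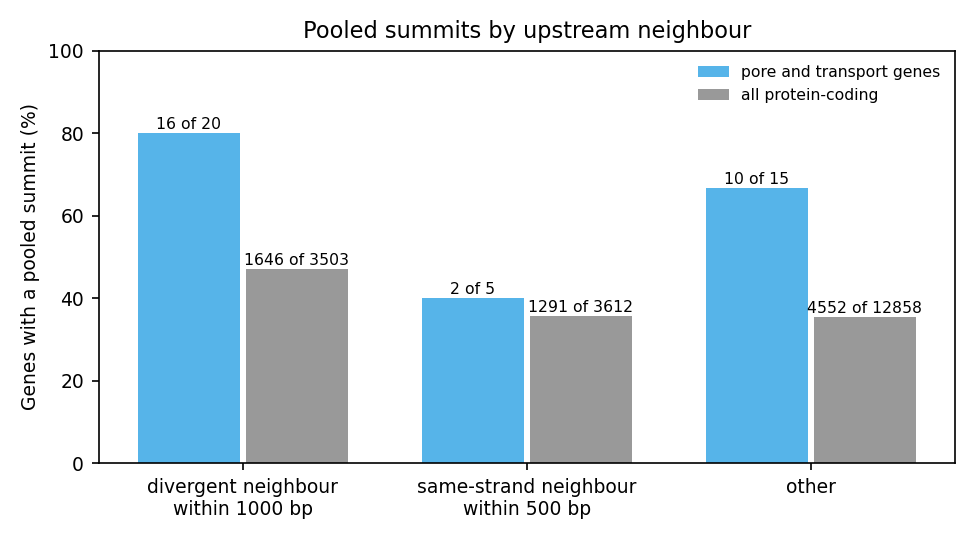
Share of genes (%) with a pooled summit, by the nearest upstream protein-coding gene, for the 40 pore and transport genes (blue) and 19973 protein-coding genes (grey), with the counts above each bar. Members reach 80% beside a divergent neighbour and 66.7% among the rest, and 40% beside a close same-strand neighbour, where the background is 35.7%.

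Short sequence motifs were searched on both strands. GATA hexamers were taken because EGL-27 has a GATA-type zinc finger, a reason that does not cover GAGAGAG and CACGTG. All were chosen with earlier results of these data known. Within 50 bp of the pooled summit, none of the 28 members held a GATA hexamer, whereas 23.3% of the 6480 strongest summits of protein-coding genes did. In the 300 bases from 250 before to 50 after the 5′ end the same hexamers were present at 55% of members (22 of 40) and 54.5% of all genes. They were found at 46.2% of pore promoters and 71.4% of transport promoters. Median GC content around the summit was 43.1% for members and 38.6% for the summits of all genes, and its part in the difference was not tested. The repeat GAGAGAG was near 1 member summit, that of npp-7 (3.57%, all genes 4.94%), and the E-box CACGTG near 1, that of imb-3 (3.57%, all genes 2.59%). A match to any of these motifs is not in itself a binding site.

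Other genes of the nuclear envelope and of mRNA export were counted for comparison. Of 14 envelope genes, including those for lamin (lmn-1), emerin (emr-1), the barrier protein baf-1 and the pore assembly factor mel-28, 9 had a pooled summit and 0 an IDR summit. Of 13 mRNA export genes, including the export receptor nxf-1 and its partner nxt-1, 11 had a pooled summit and 0 an IDR summit. The backgrounds were 37.5% and 2.56%. Both lists thus lay above the pooled background, as did the members with 28 of 40. A pooled share above the background was therefore not particular to the pore and transport genes. No gene of either list was a top peak in any replicate, where the background was 5.48%, and lists this short would hold few such genes at that share. The strongest were thoc-7 (pooled rank 1478, in a region where the 5′ end of rpl-29 was nearer), nxt-1 (2111), lem-2 (2323) and thoc-5 (3382). For mel-28 there was no pooled summit and 1 replicate summit, at rank 1525 in replicate 4, and for lmn-1 no pooled summit and rank 4645 in replicate 3.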

How the data were processed

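The authors, per the deposited README texts, called each replicate's peaks against 1 control shared by all 4 replicates, called the pooled list on the 4 alignments with that control, and derived the IDR list from these. A shared control can give the replicates peaks in common. No source used here gives the aligner, the caller or the IDR threshold. The deposited score of each peak, the authors' signal value, was used only to rank peaks; the deposited −log10 q-value was not used. The 6 lists on ce11 were used with Ensembl release 115 genes (WBcel235); no peak ended beyond its chromosome. The ce10 lists were not used here.

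The strongest summit in a window gave the gene's rank, and tied values were ordered by position. No 2 replicate lists were alike: pairs shared 17.2% to 35.9% of their top peaks within 200 bp. Python 3.11.15 with numpy 2.4.6 and pandas 2.3.3 was used, and the window functions were tested on simulated summits. Members, lists and motifs were chosen with earlier results of these data known, so counts stand beside the background without a test. Named are members with an IDR summit, transport genes, the 10 strongest pore genes, members without a pooled summit and genes sharing strong summits; other members follow for completeness. Other windows, transcript starts, peak overlap, list lengths and left-out replicates were tried.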

Additional observations from a re-analysis of the deposited data

Results flagged for a closer look

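In 4 of 10 sets of 4 replicate values, a single replicate's gap to its nearest value took up more of the range than Dixon's limit allows. Chance does so in about 1 of 20 sets of normally spread values. Neither ranks nor counts of a few genes are spread so, and the sets share genes. Whether 4 of 10 is an excess therefore cannot be told. The rank of imb-3 was 10235 in replicate 3, against 58 to 451 in the other replicates. The rank of npp-27 was 26531 in replicate 1, the longest list, against 1399 to 3539. Of these, the 1399 of replicate 2 belongs to a summit elsewhere in the window. The rank of npp-3 was 2435 in replicate 2, the shortest list, against 766 to 1040. These ranks come from lists of different lengths and are not comparable between them. The number of transport genes with a top peak was 2 in replicate 4 and 1 in each other replicate, a difference of 1 gene, which passes that limit whenever the other counts are equal.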

How the results depend on the processing

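With each summit assigned only to the gene with the nearest 5′ end, the count of members with a pooled summit fell to 18 (45%, background 31.7%). The count with an IDR summit fell to 3 (7.5%, background 1.91%), and the mean over whole replicate lists from 20.8 to 12.5 genes. In the stronger 407 IDR peaks 1 member remained, imb-3, which is 2.5% of members near a background of 1.27%. With 407 or 1628 top peaks per replicate in place of 814, the mean number of members was 1.25 or 4.5 in place of 2.25, as the number of peaks taken changes, and the pore minus transport difference turned from -5.08 to 0.824 percentage points with 1628; the cause was not tested. Leaving out 1 replicate gave means of 2 to 2.67 genes with a top peak, 18 to 24 with any summit, and differences of -6.96 to -3.3 percentage points. Other windows, all transcript starts and peak overlap gave 25 to 34 members with a pooled summit, where the background ranged from 25.6% to 48.6%. They gave 4 to 5 members with an IDR summit, where the background ranged from 1.98% to 3.23%. For the replicate means at changed settings, the share of all genes was not counted. No paired analysis was possible because the samples form 1 group. Read depth is unknown, so absence from a replicate's list does not show that a site was unoccupied.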
